A study of Mus musculus with 10 samples.

Results

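Glutathione transferases, 10 genes in all, were followed in the cerebral cortex of mice that lack the clock gene Bmal1 in astrocytes. They were chosen by gene symbol and comprise Gstm1, Gstm5 and Gstm7 of the mu class, Gsta4 (alpha), Gstp1 (pi), Gstt1 (theta), Gstz1 (zeta), Gstk1 (kappa) and the membrane-bound Mgst1 and Mgst3. All 10 were present among the 12575 genes of the table, and all 10 passed the filter on low values. The 5 Cre- and the 5 BMAL1 aKO libraries came from cortical tissue of C57BL/6 mice of 4 months of age, per the labels. Mice of both groups carried floxed Bmal1 alleles and received tamoxifen. BMAL1 aKO mice also carried CreERT2 under the Aldh1l1 promoter, which is active in astrocytes, and their Cre- littermates did not. Both sexes were used. The labels give each library as a sample of its own, and p-values measure the spread between these samples.

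Glutathione transferases join the tripeptide glutathione to reactive, electron-poor molecules, such as the aldehydes formed when membrane lipids are oxidized, and so make them less reactive and easier to export. The soluble enzymes are sorted into classes by sequence, and the mu class genes of the mouse lie side by side in 1 cluster. The microsomal enzymes belong to a separate membrane protein family. In brain, astrocytes hold much of the glutathione and supply its precursors to neurons. BMAL1 is a transcription factor that binds E-box sequences together with CLOCK and drives the circadian clock. The question was which transferases differed between BMAL1 aKO and Cre- cortex, and whether higher levels were limited to the mu class.

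Gstm5 and Gstm7 rose in BMAL1 aKO cortex, Gstm1 of the same class did not pass the test, and none of the 7 members of other classes passed. Thus 2 of 3 mu class genes and 2 of 10 members were called higher and 0 were called lower, at an adjusted p of at most 0.1 in limma with sample quality weights. Over all 12573 genes tested, 0.286% were called higher and 0.0477% lower. Cre- replicate 1 held most of the weight of its group, and both calls depended on the library weights. Without them, 0 of 10 members passed, and 0.0318% of all genes were called higher. At an unadjusted p below 0.05 there were 3 of 10 members with weights and 3 of 10 without, beside 16.8% and 4.79% of all genes. The third was Gstk1, of the kappa class. With TMM scaling and weights the same 2 members passed (0.477% of all genes higher and 0.0636% lower), and with voomWithQualityWeights on the recovered reads Gstm5 alone passed (0.215% and 0.0159%). Whether the mu class differed from the other classes was not tested. Gstm5 and the astrocyte gene Gja1 are in the study's own heatmap of changed genes from its cortex RNA-seq, so their direction here is no independent evidence.

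**Figure D1:**
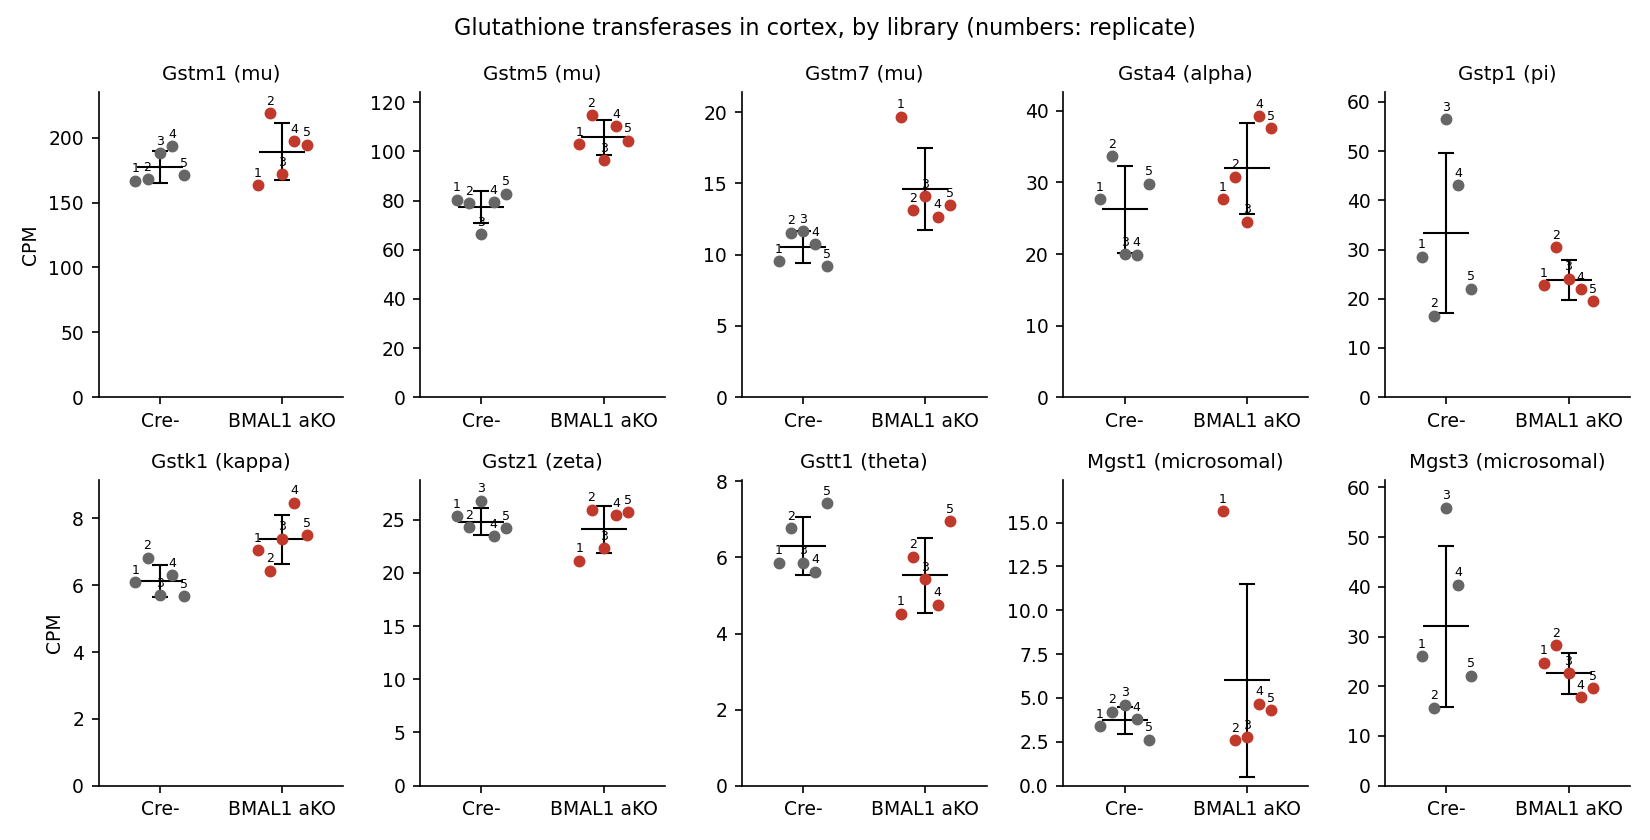
Level of each of the 10 members in every library, in CPM (read counts scaled to the library total), with a separate vertical axis from 0 for each gene. Grey points are Cre- and red points BMAL1 aKO libraries, numbered by replicate, and bars show the mean and SD (n = 5 per group). All red points lie above all grey points for Gstm5 and Gstm7, and the groups overlap for the other 8.

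Gstm5 is a mu class transferase known from brain and testis. The gene lies at chr3:107895821-107898686 on the plus strand (GRCm38), in 8 exon blocks. In Cre- replicates 1 to 5 its level was 80.3, 78.8, 66.3, 79.2 and 82.8 CPM, against 103, 115, 96.3, 110.2 and 104 CPM in BMAL1 aKO replicates 1 to 5. Every BMAL1 aKO library was above every Cre- library. The mean was 77.5 ± 6.45 CPM in Cre- against 106 ± 7.04 CPM in BMAL1 aKO (SD, n = 5 each), a ratio of 1.36. The log2 fold change on the log2(CPM + 0.5) scale (log2FC, BMAL1 aKO against Cre-) was 0.38, with a standard error (SE) of 0.06 and an adjusted p = 0.0242 in limma with weights. Without weights it was 0.45 (SE 0.09, adjusted p = 0.311, limma), and in the order of unadjusted p Gstm5 stood 14th with and 9th without weights among all genes tested. A two-sided exact permutation test on mean log2 values gave p = 0.00794, the smallest that 5 against 5 libraries can give. Groups that lay apart in this way, with BMAL1 aKO higher, were seen in 0.62% of all genes.

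The call of Gstm5 was lost when Cre- replicate 1, 4 or 5 or BMAL1 aKO replicate 4 was left out, with adjusted p = 0.657, 0.118, 0.469 and 0.128 (limma with weights). Its fold change moved little in these fits, from 0.35 without BMAL1 aKO replicate 4 to 0.41 without Cre- replicate 5. The weights of Cre- replicates 1 to 5 were 7.19, 0.454, 0.181, 0.519 and 1.52, the highest and the lowest of all libraries among them. The Cre- side of each weighted fit thus rested mostly on replicate 1. The weights did not converge when Cre- replicate 1 or 5 was left out. A further limit is that 178 of the 1278 exonic bases of Gstm5 (13.9%) are shared with the antisense gene 4933431E20Rik, and the library kit does not mark strand. That gene had 54.2 to 90.7 CPM in Cre- and 77.9 to 101 CPM in BMAL1 aKO, with overlapping groups and a log2FC of 0.17 (adjusted p = 0.323, limma).

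Gstm7 is a second mu class enzyme and lies next to Gstm5, at chr3:107926334-107931817 on the minus strand. Cre- replicates 1 to 5 had 9.52, 11.5, 11.7, 10.7 and 9.18 CPM of it, and the BMAL1 aKO values were 19.7, 13.1, 14.1, 12.7 and 13.5 CPM in the same order. The groups did not overlap, and BMAL1 aKO replicate 1 stood above the other libraries of its group. Means were 10.5 ± 1.13 and 14.6 ± 2.88 CPM (SD, n = 5 each), a ratio of 1.39. The log2FC was 0.52 (SE 0.10, adjusted p = 0.0590, limma with weights) and 0.44 without weights (SE 0.13, adjusted p = 0.803). Without BMAL1 aKO replicate 1 it was 0.45 (adjusted p = 0.0922, limma with weights). The two-sided exact permutation test gave p = 0.00794. The call was lost without Cre- replicate 1, 3, 4 or 5, with adjusted p = 0.868, 0.170, 0.212 and 0.511, and without BMAL1 aKO replicate 4 or 5, with adjusted p = 0.120 and 0.107 (limma with weights).

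Gstm1 is the most abundant member and a major mu class enzyme of mouse tissues. It lies at chr3:108012255-108017973 on the minus strand. Cre- replicates 1 to 5 had 167, 168, 188, 194 and 171 CPM, and BMAL1 aKO replicates 1 to 5 had 163, 219, 172, 198 and 195 CPM. The groups overlapped, with 3 of 5 BMAL1 aKO libraries above the highest and 1 below the lowest Cre- library. Its log2FC was 0.15 (SE 0.07, adjusted p = 0.306, limma with weights) and 0.09 without weights (adjusted p = 0.804), and the exact permutation test gave p = 0.310 (two-sided). Of the 50-base stretches of its transcripts, 18.9% also occur in transcripts of other genes, foremost the pseudogene Gstm2-ps1 and Gstm3. This share was 9.44% for Gstm5, all with the antisense gene, and 0.532% for Gstm7. The study's paired reads were longer than 50 bases, and how many could not be placed was not measured.

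The promoters of the 3 mu class members are printed because these genes lie in 1 cluster, and 2 of the 3 were called. They are RefSeq sequences of GRCm38.p6, read 5′ to 3′ on the strand of each gene. The Gstm5 window is chr3:107895604-107895820 (plus strand, 217 bases), that of Gstm7 chr3:107931818-107932067 and that of Gstm1 chr3:108017974-108018223 (minus strand, 250 bases each). Capitals mark matches to the AP-1 motif TGANTCA and to the antioxidant response element TGACNNNGC, the site bound by NRF2.
Gstm5: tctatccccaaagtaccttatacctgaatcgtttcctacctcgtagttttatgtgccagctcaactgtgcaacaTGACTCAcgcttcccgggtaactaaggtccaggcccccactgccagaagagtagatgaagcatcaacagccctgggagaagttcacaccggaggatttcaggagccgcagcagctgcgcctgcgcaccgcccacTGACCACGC
Gstm7: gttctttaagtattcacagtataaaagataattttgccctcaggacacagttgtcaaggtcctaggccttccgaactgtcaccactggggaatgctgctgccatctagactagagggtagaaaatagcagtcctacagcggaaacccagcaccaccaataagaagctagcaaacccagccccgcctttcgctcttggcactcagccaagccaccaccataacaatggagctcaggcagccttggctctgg
Gstm1: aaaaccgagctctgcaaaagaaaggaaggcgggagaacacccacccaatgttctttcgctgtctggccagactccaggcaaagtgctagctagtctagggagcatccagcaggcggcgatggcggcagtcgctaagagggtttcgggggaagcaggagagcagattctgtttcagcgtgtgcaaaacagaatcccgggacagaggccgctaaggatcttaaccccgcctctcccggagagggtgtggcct
In the Gstm5 sequence the AP-1 match begins 176 bases and the antioxidant response element match 42 bases before the RefSeq start site. Neither motif, nor the E-box CACGTG or its variant CACGTT, was found in the windows printed for Gstm7 and Gstm1. A second RefSeq start site of Gstm7 had an antioxidant response element match 129 bases upstream, and a second start site of Gstm1 had CACGTT 50 bases upstream. Both strands were searched in the 250 bases before each start site, and CACGTG and TGANTCA read the same on both. Over 32851 mouse promoters of this length, TGACNNNGC was in 10.2%, TGANTCA in 6.75%, CACGTG in 6.02% and CACGTT in 3.85%. Of the 10 members, 9 had a RefSeq promoter and Gsta4 had none. Gstp1 held CACGTT and an AP-1 match, Mgst1 held an antioxidant response element match, and no member promoter held CACGTG.

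Within the mu class, the share of Gstm5 was higher and that of Gstm1 lower in BMAL1 aKO. The ratio of Gstm5 to Gstm1, which no scaling between libraries can change, was 0.481, 0.469, 0.352, 0.409 and 0.483 in Cre- replicates 1 to 5 and 0.631, 0.523, 0.561, 0.558 and 0.536 in BMAL1 aKO replicates 1 to 5. The 2 groups lay apart. Of the CPM of the 5 mu class genes in the table, Gstm5 made up 24.1 to 30.8% in Cre- and 32.1 to 35.1% in BMAL1 aKO, and Gstm1 63.1 to 68.3% and 55.7 to 61.4%. The ratio of Gstm7 to Gstm1 overlapped between groups, at 0.0536 to 0.0687 and 0.0599 to 0.121. So did the summed level of the class, with means of 273 ± 10.6 CPM in Cre- against 318 ± 27.9 CPM in BMAL1 aKO (SD, n = 5 each). These ratios and shares were formed after the single genes had been seen and carry no test. How many ratios of other genes lie apart between the groups was not counted.

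**Figure D2:**
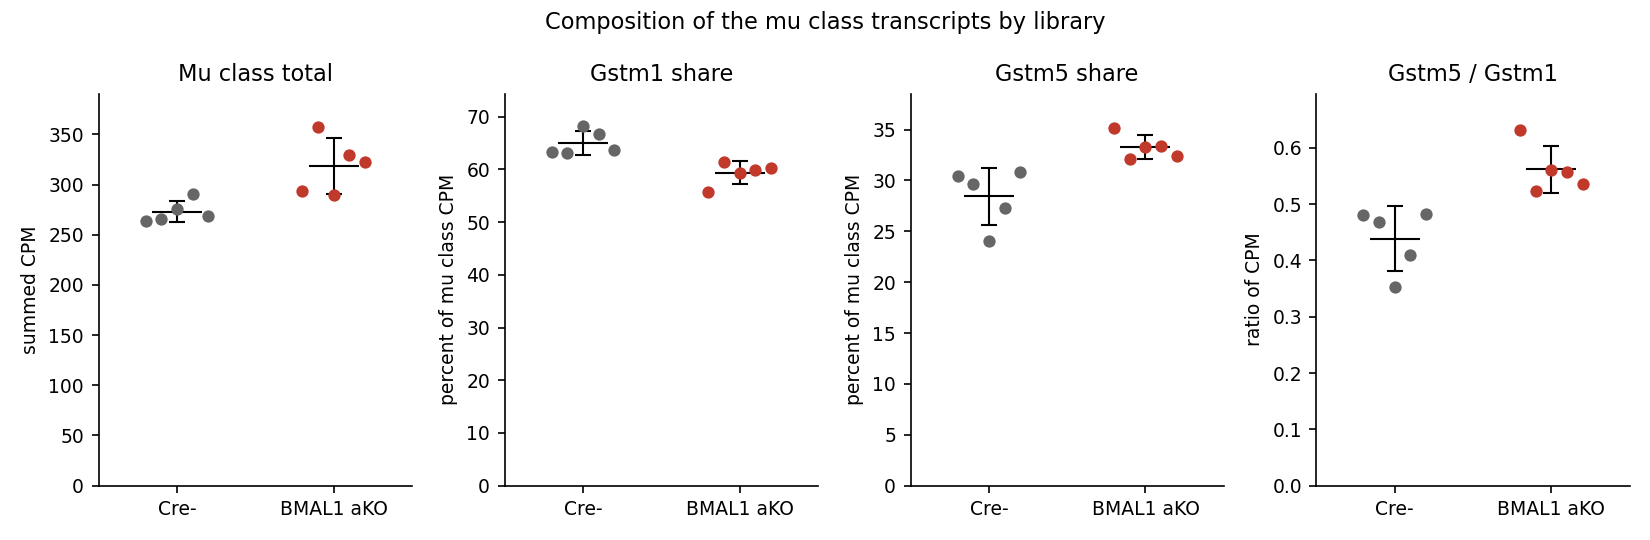
Composition of the mu class transcripts in each library: the summed CPM of the 5 mu class genes, the shares of Gstm1 and Gstm5 in that sum in percent, and the ratio of Gstm5 to Gstm1, with every axis from 0. Grey points are Cre- and red points BMAL1 aKO libraries, bars show mean and SD (n = 5 per group), and the groups lie apart in the 3 right panels but overlap in the sum.

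The mu cluster spans 149 kb and holds 7 genes, of which 5 were in the table. Along the chromosome from Gstm5, the log2FC were 0.38 for Gstm5, 0.52 for Gstm7, 0.54 for Gstm6, 0.15 for Gstm1 and 0.06 for Gstm4 (limma with weights). Gstm6 and Gstm4 are no members. Gstm6 had 2.15 to 5.31 CPM in Cre- and 3.37 to 6.99 CPM in BMAL1 aKO, and its difference did not pass (adjusted p = 0.205, limma with weights). Gstm2 and Gstm3 were not analysed here.

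Gsta4, the alpha class enzyme with high activity towards the lipid aldehyde 4-hydroxynonenal, varied among the libraries of both groups. In Cre- replicates 1 to 5 it was at 27.7, 33.7, 20.02, 19.9 and 29.8 CPM, against 27.6, 30.8, 24.5, 39.3 and 37.6 CPM in BMAL1 aKO. Only BMAL1 aKO replicates 4 and 5 were above all Cre- libraries. The log2FC was 0.18 (SE 0.13, adjusted p = 0.470, limma with weights). It was 0.03 without BMAL1 aKO replicate 4, 0.06 without replicate 5 and 0.36 without replicate 3 of that group, and 0.05 with Xist as a covariate.

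Gstp1, the pi class enzyme, was widely spread in the Cre- group. In Cre- replicates 1 to 5 it was at 28.6, 16.6, 56.5, 43.1 and 22.1 CPM, against 22.8, 30.5, 24.1, 21.9 and 19.6 CPM in BMAL1 aKO. The BMAL1 aKO values all lay within the Cre- range, and Cre- replicates 3 and 4 were the highest. The log2FC was -0.25 (SE 0.15, adjusted p = 0.406, limma with weights), and with 1 library left out it lay between -0.42 (Cre- replicate 5) and -0.11 (Cre- replicate 4). Of its 50-base stretches, 33.7% also occur in the neighbouring gene Gstp2. The study's paired reads were longer than this, and how well they could be split between both genes was not measured. Gstp2 itself was low, with 1.47 to 3.11 CPM in Cre- and 2.07 to 5.73 CPM in BMAL1 aKO (log2FC 0.42, adjusted p = 0.320, limma with weights).

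Mgst3, a microsomal enzyme with glutathione transferase and peroxidase activity, followed Gstp1 from library to library. In Cre- replicates 1 to 5 it was at 26.1, 15.7, 55.9, 40.4 and 22.1 CPM, against 24.7, 28.3, 22.6, 17.9 and 19.7 CPM in BMAL1 aKO. Again Cre- replicates 3 and 4 were the highest and the BMAL1 aKO values lay within the Cre- range. The log2FC was -0.24 (SE 0.15, adjusted p = 0.424, limma with weights), with a range of -0.41 to -0.13 when the same libraries were left out. Across the 10 libraries, Pearson's r of the log2 values of Gstp1 and Mgst3 was 0.98, and it was 0.98 after the group means were removed. The ratio of Gstp1 to Mgst3 stayed between 0.921 and 1.23. As a description over libraries that share the same scaling, the log2 TMM factor of a library had r = 0.97 with Gstp1, 0.94 with Mgst3, -0.80 with Gsta4 and -0.47 with Gstm5 (n = 10). The TMM factor, which follows how reads are spread over genes, was 0.923 to 1.10 in Cre- and 0.957 to 1.03 in BMAL1 aKO. Its part in these levels was not tested.

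**Figure D3:**
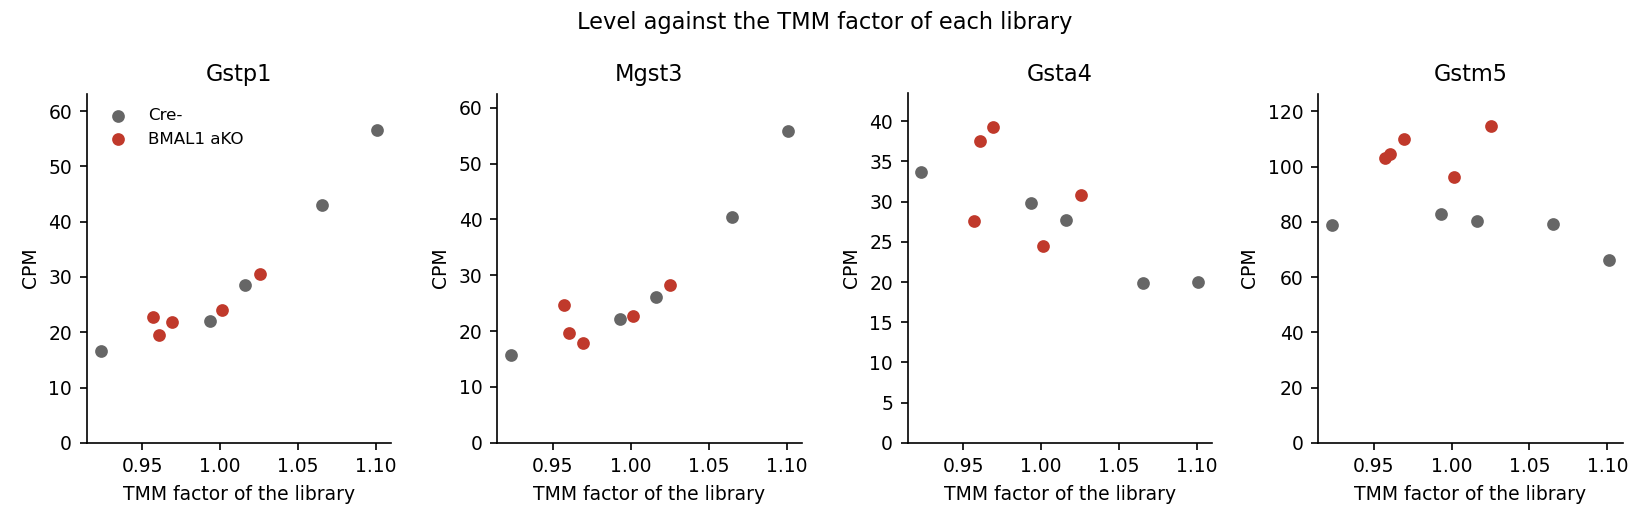
Level of Gstp1, Mgst3, Gsta4 and Gstm5 in CPM (vertical axes from 0) against the TMM factor of each of the 10 libraries, with Cre- in grey and BMAL1 aKO in red. Gstp1 and Mgst3 climb with the factor and peak at 56.5 and 55.9 CPM in Cre- replicate 3, Gsta4 runs the other way, and Gstm5 separates by group.

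Gstk1, the kappa class enzyme of mitochondria and peroxisomes, came nearest to the called members. In Cre- replicates 1 to 5 it was at 6.09, 6.82, 5.70, 6.31 and 5.67 CPM, against 7.05, 6.44, 7.39, 8.47 and 7.49 CPM in BMAL1 aKO. The groups overlapped by 1 library, BMAL1 aKO replicate 2, which lay below Cre- replicate 2. The log2FC was 0.28 (SE 0.09) and did not pass after adjustment over all genes (unadjusted p = 0.00820, adjusted p = 0.183, limma with weights). Without weights it was 0.25 (adjusted p = 0.803), and the two-sided exact permutation test gave p = 0.0159. In that test 3 of 10 members, Gstm5, Gstm7 and Gstk1, were higher with an unadjusted p below 0.05 and 0 were lower, beside 2.32% and 2.9% of all genes. The fold changes of Gstk1 and of Gstm5, 0.28 ± 0.09 and 0.38 ± 0.06 (standard errors), were not tested against each other.

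Gstz1, the zeta class enzyme of tyrosine breakdown, varied little, with 23.5 to 26.8 CPM in Cre- and 21.2 to 25.96 CPM in BMAL1 aKO. Its log2FC was -0.05 (SE 0.07, adjusted p = 0.717, limma with weights). It overlaps Pomt2 on the opposite strand over 9.14% of its exonic bases. Gstt1, the theta class enzyme that acts on small halogenated compounds, had 5.62 to 7.42 CPM in Cre- and 4.52 to 6.95 CPM in BMAL1 aKO (log2FC -0.13, SE 0.12, adjusted p = 0.579). Neither gene separated the groups.

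Mgst1, the microsomal enzyme of the endoplasmic reticulum and outer mitochondrial membrane, was low in 9 of 10 libraries. In Cre- replicates 1 to 5 it was at 3.40, 4.21, 4.61, 3.79 and 2.61 CPM, against 15.7, 2.61, 2.75, 4.67 and 4.30 CPM in BMAL1 aKO. BMAL1 aKO replicate 1 was the single high library. The log2FC was 0.30 (SE 0.27, adjusted p = 0.588, limma with weights) and 0.34 without weights. With that library left out it was 0.11 with weights and -0.07 without. The same library had the highest Gstm7 level and the highest sum of 3 choroid plexus markers, 1061 CPM. The choroid plexus sum was 929 CPM in Cre- replicate 5, which had the lowest Gstm7 level and a Mgst1 level of 2.61 CPM, and it was 13.8 to 280 CPM in the other 8 libraries. No choroid plexus marker was at 0 in any library. The part of choroid plexus RNA in the Mgst1 and Gstm7 levels of BMAL1 aKO replicate 1 was not tested.

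**Figure D4:**
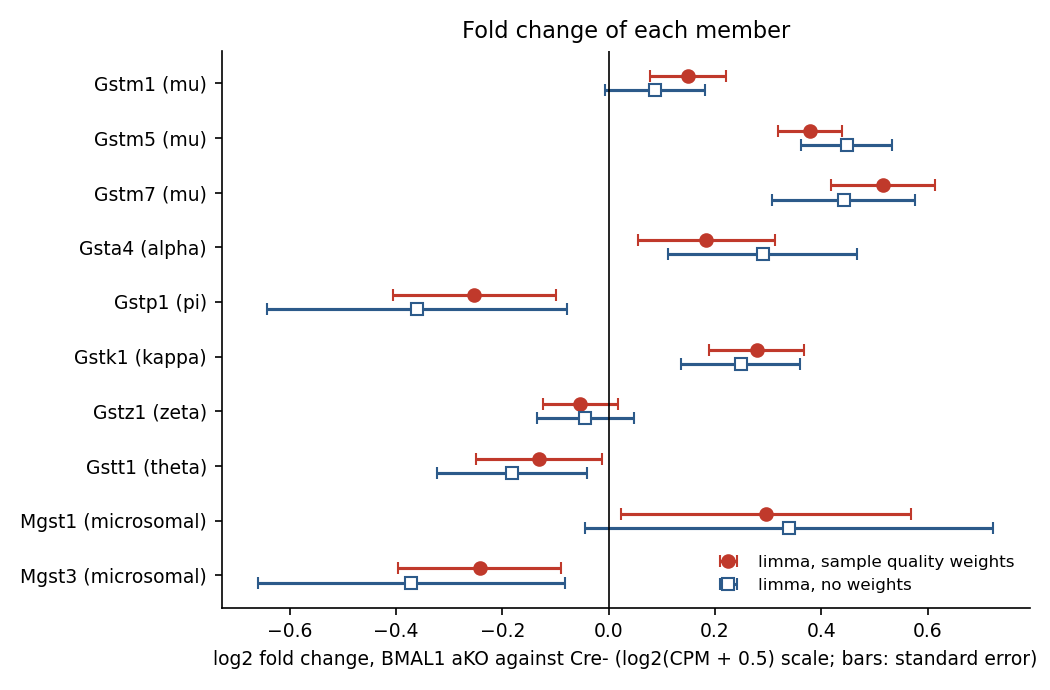
Log2FC of each member (BMAL1 aKO against Cre-) on the log2(CPM + 0.5) scale, with bars of 1 standard error. Filled red circles are limma with sample quality weights and open blue squares limma without. Gstm5 and Gstm7 lie at 0.38 and 0.52 with weights and at 0.45 and 0.44 without, Gstp1 and Mgst3 lie below 0, and Mgst1 has the widest bar.

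The levels of the members can be set against each other per kilobase of exon. In Cre- cortex Gstm1 led with a mean of 121 CPM per kb, ahead of Gstm5 with 60.6 and Mgst3 with 29.2 CPM per kb. Gstp1 and Gsta4 followed at 21.6 and 20.7 CPM per kb, with SDs of 10.5 and 4.82, so these neighbours and Mgst3 (SD 14.7) could not be ordered. Gstm7 was at 6.57, Gstz1 at 4.88, Gstk1 at 4.16, Gstt1 at 4.13 and Mgst1 at 1.85 CPM per kb. The length used joins all annotated exons of a gene, so extra annotated exons lower the value. For Gstz1 it was 5088 bases, against 1097 (Mgst3) to 2013 (Mgst1) for the other members. Gstk1 and Gstt1 did not differ beyond their SDs (0.325 and 0.4998). In BMAL1 aKO cortex Gstm5 reached 82.7 and Gstm7 9.12 CPM per kb.

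Over the 10 members the median log2FC was 0.17, with 6 above and 4 below 0, while the median over all 12573 genes was -0.04, with 38.4% above 0. Of the other 19 transferases and related membrane enzymes on the list, 6 were in the table (Gstm4, Gstm6, Gstp2, Gsto1, Gstcd and Hpgds). Gsto1, an omega class enzyme, had a log2FC of 0.11 (adjusted p = 0.663, limma). None of the 6 passed in limma with or without weights. At an unadjusted p below 0.05 there was 1 with weights and 0 without, beside 16.8% and 4.79% of all genes.

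The genes that make, reduce and use glutathione did not pass either. Of 15 glutathione supply genes, 0 passed in limma with or without weights. An unadjusted p below 0.05 was seen for 4 with weights and 0 without, beside 16.8% and 4.79% of all genes. The median log2FC of the 15 genes was -0.09, beside -0.04 over all genes. The smallest p belonged to Oplah, which recycles oxoproline to glutamate (16.6 ± 9.49 CPM in Cre- against 9.09 ± 1.76 CPM in BMAL1 aKO, SD, adjusted p = 0.221 in limma), Cbs of the transsulfuration pathway (log2FC 0.29, adjusted p = 0.241) and Gsr, which reduces oxidized glutathione (log2FC -0.15, adjusted p = 0.281).

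Among 12 peroxidases and thiol enzymes, 0 passed in limma with or without weights. Beside 16.8% of all genes with weights and 4.79% without, 1 of the 12 had an unadjusted p below 0.05 in both fits. That gene was Glrx5, the glutaredoxin of mitochondrial iron-sulfur assembly, with 18.1 ± 2.75 CPM in Cre- against 22.5 ± 2.18 CPM in BMAL1 aKO (SD, n = 5 each, adjusted p = 0.176). Txnrd1 and Txnrd2, the cytosolic and mitochondrial thioredoxin reductases, had log2FC of -0.12 and 0.17 (adjusted p = 0.379 and 0.399, limma). The 5 exporters of glutathione conjugates had no call and no unadjusted p below 0.05 with or without weights. The nearest were Abcc4 and Abcc5, with log2FC of 0.13 and -0.11 (adjusted p = 0.441 and 0.449, limma).

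Of 14 enzymes that clear carbonyls and epoxides, 0 passed in limma. An unadjusted p below 0.05 was seen for 3 with weights and 0 without, beside 16.8% and 4.79% of all genes. Ephx2, an epoxide hydrolase, and Adh5, which clears formaldehyde bound to glutathione, had log2FC of 0.27 and 0.28 (adjusted p = 0.183 for both), and Aldh2, the mitochondrial aldehyde dehydrogenase, had -0.29 (adjusted p = 0.212). Of 19 genes of the NRF2 pathway, which includes many known regulators and targets of the antioxidant response element, 0 passed. Nqo1, Hmox1 and Osgin1 of this pathway were not in the table. With an unadjusted p below 0.05 there were 2 genes with weights and 1 without, beside 16.8% and 4.79% of all genes. These were led by Cat, catalase, at 50.9 ± 6.73 and 58.4 ± 6.96 CPM (SD, adjusted p = 0.229, limma), and Slc7a11, the cystine importer, at 54.9 to 69.4 CPM in Cre- and 57.0 to 122 CPM in BMAL1 aKO (adjusted p = 0.286, limma). Nfe2l2, which encodes NRF2, had a log2FC of 0.16 (adjusted p = 0.367, limma). These 3 are not typical of the list. In it, 15 of 19 genes had a log2FC below 0 with weights and 15 of 19 without, with medians of -0.05 and -0.10. Over all genes, 38.4% were above 0 with weights and 37.0% without, with medians of -0.04 and -0.05.

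In bulk cortex, a change in the number of cells of a type cannot be told apart from a change in RNA per cell. Of 10 astrocyte markers, 1 passed, Gja1, the gap junction protein connexin 43 (log2FC 0.44, adjusted p = 0.0273, limma with weights, 0.350 without). Over all genes, 0.286% were called higher with weights. An unadjusted p below 0.05 was seen for 1 of the 10 with weights and 2 without, beside 16.8% and 4.79% of all genes. The summed astrocyte markers were at 5571 to 7122 CPM in Cre- and 6736 to 8244 CPM in BMAL1 aKO, with overlapping groups, and Slc1a2 made up 65.0 to 74.1% of the sum. Per 1000 CPM of that sum, Gstm5 was at 11.6 to 12.6 CPM in Cre- and at 13.7 to 15.5 CPM in BMAL1 aKO, without overlap. Gstm7 overlapped on this scale, at 1.29 to 2.09 and 1.59 to 2.85 CPM. How many of all genes lie apart on this scale was not counted. The part of astrocyte RNA in the difference of either gene was not tested. No marker of oligodendrocytes (9 genes), microglia (6), endothelium (5), neurons (6), choroid plexus (3) or meninges (5) passed in limma with or without weights. Of these markers 2, Syt1 included, had an unadjusted p below 0.05 with weights and 0 without, beside 16.8% and 4.79% of all genes. With weights, all 9 oligodendrocyte markers had a log2FC above 0 (median 0.20), and 5 of 6 neuron markers below 0 (median -0.09). Without weights, 4 of 9 and 4 of 6 were below 0 (medians 0.03 and -0.19). The medians over all genes were -0.04 with and -0.05 without weights. Genes among those with the smallest p were as follows, with weights. Beside Gja1, the astrocyte genes Slc1a2 and Aldoc had log2FC of 0.16 and 0.11 (adjusted p = 0.298 and 0.380). In oligodendrocytes Mobp and Cldn11 had 0.24 and 0.21 (adjusted p = 0.306 and 0.300). In microglia Cx3cr1 and P2ry12 had 0.11 and 0.13 (adjusted p = 0.435 and 0.543), and in endothelium Slco1a4, Flt1 and Pecam1 had 0.16, 0.07 and 0.06 (adjusted p = 0.328, 0.636 and 0.763). In neurons Syt1, Slc17a7 and Gad2 had -0.19, -0.27 and -0.12 (adjusted p = 0.192, 0.319 and 0.527). Ttr, Kl and Clic6 of the choroid plexus had -0.62, -0.72 and -0.44 (adjusted p = 0.806, 0.510 and 0.604), and Col1a1, Col1a2 and Slc6a13 of the meninges 0.12, -0.07 and 0.05 (adjusted p = 0.718, 0.870 and 0.923). None of these markers was at 0 in any library.

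The genes whose log2 values ran most like those of the mu class members were sought across all 10 libraries, as a description that includes the difference between groups. Gstm5 was most like Gja1 (r = 0.95), Egfl6 (0.95), a secreted EGF repeat protein, and Pon2 (0.95), a membrane lactonase. Gstm7 was most like Zfp771 (0.93), Lpl (0.90), the lipoprotein lipase, and Il6st (0.89), the shared receptor of the interleukin 6 family. Gstm1 was most like Rpl12 (0.93), Pea15a (0.91) and Stk19 (0.90). After the group means were removed, r in the same order was 0.74, 0.67 and 0.89 for the genes of Gstm5. It was 0.91, 0.74 and 0.72 for those of Gstm7, and 0.95, 0.94 and 0.90 for those of Gstm1. None of the 9 genes appeared for more than 1 member. Among the members themselves, the log2 values of Gstm5 and Gstm7 had r = 0.58 over all libraries and -0.48 after the group means were removed, so the libraries with most Gstm5 were not those with most Gstm7 within a group.

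The libraries held 21844770 to 48295715 reads, so that 3 reads corresponded to 0.0621 to 0.137 CPM and the members lay well above counting limits. Arntl, the symbol of Bmal1, was at 31.9 to 37.1 CPM in Cre- and 31.1 to 38.8 CPM in BMAL1 aKO (log2FC 0.01, adjusted p = 0.932, limma). The count covers the whole gene in tissue that also holds cells without Cre, and it does not test the labels. Aldh1l1 had a log2FC of -0.04 (adjusted p = 0.865), and Gfap, the astrocyte filament gene, was at 109 to 138 CPM in Cre- and 134 to 279 CPM in BMAL1 aKO (log2FC 0.66, adjusted p = 0.123, limma). Xist was above 100 CPM in 2 Cre- and 2 BMAL1 aKO libraries, with means of 408 and 416 CPM. In limma with weights the groups were not balanced in Xist, with a log2FC of 2.69 (adjusted p = 0.476). With its level as a covariate, the log2FC was 0.35 for Gstm5 (adjusted p = 0.0751) and 0.45 for Gstm7 (adjusted p = 0.168, limma with weights), so the call of Gstm7 was lost.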

How the data were processed

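RNA of cortical tissue was sequenced in 5 Cre- and 5 BMAL1 aKO libraries, made with a SMARTer kit that does not mark strand. The authors deposited CPM per gene, from reads aligned to GRCm38 with STAR 2.5.1a and counted with featureCounts 1.4.6-p5, per the labels. In every library each CPM value was a whole number of reads within 0.01 read, and the deposited CPM do not hold TMM scaling. All 10 libraries were used. The study's text gives fewer BMAL1 aKO mice and an older age than the labels, and the labels do not say which library it left out. The study's methods name voomWithQualityWeights, which was run on the recovered reads as an alternative.

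The filter on low values asked for more than 1 CPM in 4 or more libraries and left 12573 genes. Values of log2(CPM + 0.5) were fitted in limma 3.58.1 (R 4.3.3) with arrayWeights and a variance trend, with Benjamini-Hochberg adjustment over all genes and a threshold of 0.1. The fit was also run on simulated counts with noise drawn independently for each gene. Noise shared between the genes of a library was not simulated, so this run gives no evidence on the calls. Single members were compared with two-sided exact permutation tests (SciPy 1.17.1). Positions, exons and transcript stretches of 50 bases came from GENCODE M21 (12550 genes matched) and promoters from RefSeq. Python 3.11.15, NumPy 2.4.6, pandas 2.3.3 and matplotlib 3.10.9 were used.

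The members and lists were chosen with earlier results of these data known. Named are all members, the list genes past the threshold or, where fewer than 3 passed, those with the smallest p up to 3, Arntl, Aldh1l1 and Gfap, and the 3 genes most like each of Gstm1, Gstm5 and Gstm7. Some list genes that this rule names are not reported here. Alternatives covered pseudocount, filter, weights, scaling, a replicate block, Xist as a covariate, each library left out and a threshold of 0.05. Pairs of libraries within groups differed by 12.9 to 448 in chi-square per degree of freedom, far beyond counting error.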

Additional observations from a re-analysis of the deposited data

Results flagged for a closer look

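Dixon's test of the most extreme library was made for the 10 members in both groups, 20 groups of 5 libraries in all, and marked 3. Chance marks about 1 in 20 such groups. Gstm5 in Cre- replicate 3 was the lowest of its group at 66.3 CPM, with the next at 78.8 CPM, a gap of 0.761 of the range. The sum of the 10 astrocyte markers was lowest in the same library, at 5571 CPM, and without this library the log2FC of Gstm5 was 0.37 (adjusted p = 0.0643, limma with weights).

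Gstm7 in BMAL1 aKO replicate 1 was the highest of its group at 19.7 CPM, with the next at 14.1 CPM, a gap of 0.798 of the range. Mgst1 was also highest in that library, at 15.7 CPM with the next at 4.67 CPM, a gap of 0.842 of the range. Why both genes were high in 1 library was not tested.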

How the results depend on the processing

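In 319 refitted log2FC values of the members, 315 kept their direction. The 4 that turned were Mgst1 with Xist as a covariate (-0.051) and without BMAL1 aKO replicate 1 and weights (-0.065), and Gstz1 with TMM scaling and no weights (0.0062) and without BMAL1 aKO replicate 1 and weights (0.0011). Mgst1 was below a mean of 5 CPM in the stricter filter and has no value there. All 64 values of Gstm5 and Gstm7 kept their direction. The groups did not overlap for either gene. A change of weights, pseudocount or filter, or a library left out, therefore could not have turned their direction.

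The number of members called, 2 at first, was 0 without weights, 0 with a replicate block, 0 with TMM scaling and no weights and 0 with the block and no weights. It was 1 with voomWithQualityWeights (Gstm5), 1 with the Xist covariate and 1 at a threshold of 0.05 (Gstm5 in both), and 0 to 2 with 1 library left out. Over all genes 42 were called (36 higher, 6 lower), with 4 without weights, 68 with TMM scaling, 7 with the block, 22 with the Xist covariate, 4 with TMM and no weights, 2 with the block and no weights, 20 at 0.05, and 1 to 844 with 1 library left out. The count of 844 (339 higher, 505 lower) came without BMAL1 aKO replicate 3, where Gstm5 and Gstm7 both passed (adjusted p = 0.0114 and 0.0573, limma), and the count of 1 without Cre- replicate 1. The pathway and marker list genes called, 1 at first (Gja1), were 0 without weights, 0 with the block, 0 with TMM and no weights and 0 with the block and no weights, and 0 to 4 with 1 library left out. The fits without weights combined with another choice were added after seeing the data, as were all alternatives for the list counts. The cause of these shifts was not tested.

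The labels give both groups the same replicate numbers, but these gave no pairing (correlation of equal numbers -0.63 to 0.36 over 5 pairs, own number best for 1 Cre- library). With the replicate block, the log2FC of Gstm5 was 0.38 (adjusted p = 0.170) and that of Gstm7 0.55 (adjusted p = 0.191, limma). The planned quasi-likelihood count test was not run, and voomWithQualityWeights was the only fit to the recovered reads. Depth did not limit the members.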
